A study of Homo sapiens with 8 samples.

Results

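The 2 single agents of the study, VTP50469 and WM1119, were compared with each other in the human acute myeloid leukemia line MOLM-13, an established line that carries the KMT2A-AF9 fusion and is labelled wild type otherwise. The members are the 4 RNA sequencing samples of the single agents, 2 of VTP50469 and 2 of WM1119, out of 8 in the series, and all genes of the table. The other samples are 2 with DMSO, the solvent control, and 2 with both agents together, called the combination. The comparison asked which genes responded to one agent and not to the other, with the test made directly between the agents and without the DMSO samples. The sources used here do not give dose or duration for either agent, so the agents are not known to have been given at matched strength, and a difference between them describes these treatments only. Whether the 2 samples of a group came from separate cultures is not given either, and p-values measure the spread between these samples.

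VTP50469 occupies the pocket of Menin, the product of MEN1, that binds the start of KMT2A, and so keeps Menin from KMT2A and its leukemic fusions on chromatin. Genes such as MEIS1, MEF2C and the HOXA cluster are well known to depend on that contact in leukemias with a KMT2A fusion. WM1119 competes with acetyl-CoA in KAT6A, a histone H3 acetyltransferase of the MYST family that works with the scaffold protein BRPF1 and with ING5 and MEAF6. Myeloid progenitors normally switch on granule enzymes such as myeloperoxidase first, and monocyte or neutrophil genes later.

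Of 26475 gene symbols in the table, 12030 had enough counts for the test in the 4 samples. Totals ran from 19798618 to 23634462 counts per sample, and levels are given as CPM, the count of a gene scaled to the total of its sample. The 2 VTP50469 samples had 22 genes more than 2-fold apart, and the 2 WM1119 samples had 86. The difference between the WM1119 samples followed transcript length, with a Spearman correlation across genes of -0.64, against 0.43 between the VTP50469 samples (genes are not independent replicates, so no p is given). Myeloid markers were present in all 4 samples. CD33, a surface receptor of myeloid cells, stood at 65.3 and 65.6 CPM with VTP50469 and at 71.8 and 69.2 CPM with WM1119, while ANPEP had 0 to 4 counts per sample and is absent as a marker. Among lists of other cell types, 6 of 18 T and NK cell genes, 5 of 14 B and plasma cell genes, 16 of 19 erythroid genes, 7 of 14 megakaryocyte genes and 12 of 20 epithelial, stromal and kidney line genes had no count in these 4 samples, and no gene of these lists was called. Of 14 dendritic cell markers, 3 had no count and 6 were tested. None of the 6 was called, but 4 were lower with VTP50469 at an unadjusted p under 0.05, as were 5.84% of all tested genes. The median log2 difference of the 6 was -0.585. The summed level of the list was 99.4 and 94.2 CPM with VTP50469 and 118.6 and 135.9 CPM with WM1119, and its part in the results was not tested.

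VTP50469 and WM1119 left MOLM-13 cells with different levels of 99 genes. Of 14 tested genes on a list named for neutrophil primary granules, 4 were higher with VTP50469 and none was lower. Among the 4 were the granule proteins MPO and BPI. BPI and SERPINB10, also of the 4, had enough counts for the test only through their VTP50469 samples. Of 23 tested targets of Menin and KMT2A fusions, MEIS1 and MEF2C were lower with it and none was higher. With edgeR's quasi-likelihood test and Benjamini-Hochberg adjusted p under 0.05, 56 genes were higher with VTP50469 than with WM1119, 0.466% of the genes tested, and 43 were lower, 0.357%, and such genes are named called genes here. Of these, 42 and 28 differed more than 2-fold. The 2 groups of samples did not overlap for any of the 99 genes, while both VTP50469 samples lay above both WM1119 samples for 20.1% of all tested genes and below them for 20.1%. The median log2 difference over all tested genes was -0.002, and for 9800 genes, 81.5%, the whole 95% interval lay within a 2-fold difference in either direction. The number of called genes changed with the samples in the fit, and why was not tested. A fit that added the 2 DMSO samples called 266 genes, all 99 among them, whereas one that added the combination samples too, with a common dispersion of 0.0457 against 0.0144, called 4, namely MPO, CORO2A, SLCO4C1 and DCANP1. Without WM1119 replicate 1 the count was 737, and without WM1119 replicate 2 it was 1510, again with all 99 included. Leaving out VTP50469 replicate 1 gave 159 genes with 86 of the 99, and leaving out VTP50469 replicate 2 gave 177 with 81.

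**Figure D1:**
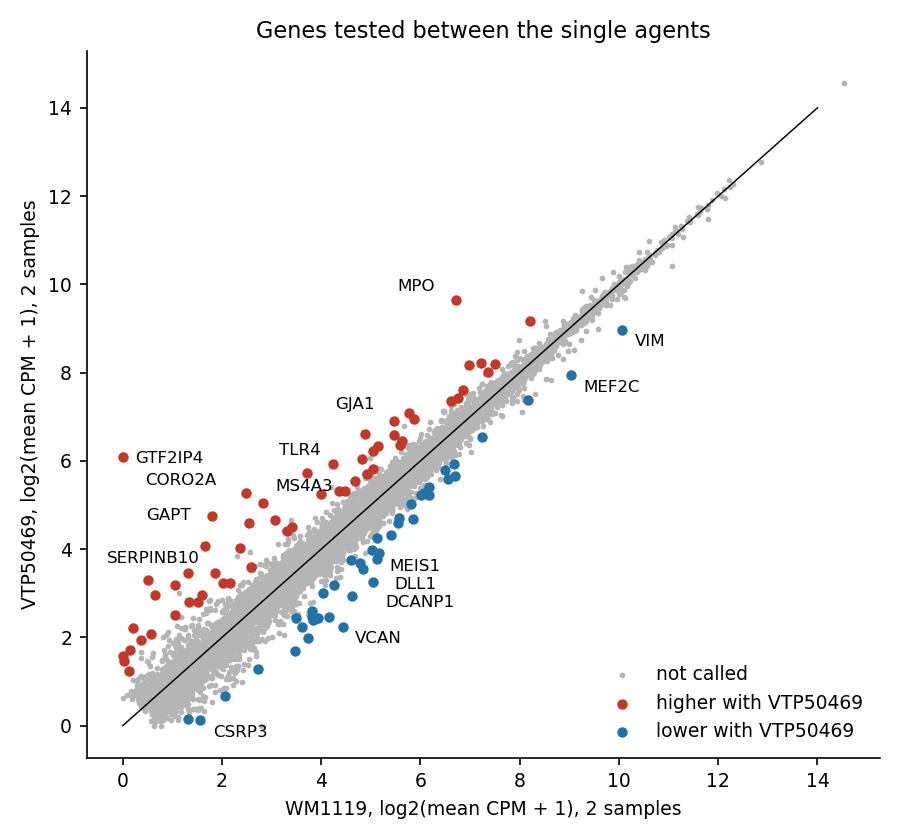
Mean level of each tested gene with WM1119 (horizontal) and VTP50469 (vertical), each as log2(mean CPM + 1) of 2 samples, with the line of equal level. The 56 genes called higher with VTP50469 are red, the 43 called lower are blue, and 15 genes carry their names.

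The place of DMSO was used to describe which agent had moved each gene. The position of the DMSO mean between the 2 agents was measured on log2(CPM + 1), with 0 at the WM1119 mean and 1 at the VTP50469 mean. DMSO lay within 0.25 of WM1119 for 26 of the 56 higher genes and 13 of the 43 lower genes. It lay within 0.25 of VTP50469 for 5 higher and 8 lower genes. In 12 higher and 16 lower genes it fell between these zones. In the remaining 12 higher and 6 lower genes it lay beyond WM1119, with both agents on the same side of DMSO and VTP50469 farther. For 1 higher gene it lay beyond VTP50469. These positions share the DMSO samples between the agents and are a description. A fit without WM1119 replicate 2 called a larger set of genes. Among the higher genes of that set, DMSO lay near WM1119 for 13.4% and near VTP50469 for 35.7%. Among its lower genes these shares were 13.2% and 36.6%, so the order of the 2 places turned in that set. The 56 higher and 43 lower genes were not placed again without that sample, so whether their positions depended on it was not tested. In a fit of the 6 samples without the combination, VTP50469 alone was called against DMSO for 39 of the higher and 24 of the lower genes, and WM1119 alone for 8 and 9. Over all genes of that fit VTP50469 was called higher than DMSO for 2.06% and lower for 1.35%, and WM1119 for 0.829% and 0.5%. Both agents were called against DMSO in the same direction for 4 of the higher and 0 of the lower genes. A miss against DMSO does not show that an agent left the gene as it was.

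The genes higher with VTP50469 included several that it had raised above DMSO. MPO, the peroxidase of primary granules, stood at 49.7 and 41.01 CPM in DMSO, 709 and 903 with VTP50469 and 99.05 and 109 with WM1119. Both VTP50469 samples were far above all others of these groups, and the WM1119 samples were above both DMSO samples. The log2 difference between the agents was 2.96 ± 0.15 (SE), a 7.75-fold higher level with VTP50469 (adjusted p = 0.0012). Against DMSO, MPO rose with both agents, by 4.17 on the log2 scale with VTP50469 (adjusted p = 7.22e-05) and by 1.21 with WM1119 (adjusted p = 0.0136). CORO2A, a coronin that binds actin, read 3.15 and 4.72 CPM in DMSO, 36.6 and 38.7 with VTP50469 and 4.27 and 4.86 with WM1119. Its WM1119 and DMSO samples overlapped, and the agents differed by 3.04 ± 0.15 (SE, adjusted p = 0.000963). SLCO4C1, an organic anion transporter, had the same form, at 2.21 and 2.14, 16.4 and 15.3 and 2.12 and 2.19 CPM in that order, with a log2 difference of 2.88 ± 0.18 (SE, adjusted p = 0.0033). GAPT, a membrane adaptor that binds GRB2, was 10.4-fold higher with VTP50469, at 20.5 and 31.2 CPM, than with WM1119, at 2.29 and 2.72 (adjusted p = 0.00621), and DMSO stood at 0.995 and 1.95. MPO and its neighbour BZRAP1 (TSPOAP1), which encodes a scaffold protein and lies 20296 bases from MPO on chromosome 17, were both called. BZRAP1 stood at 66.9 and 70 CPM in DMSO, 275 and 298 with VTP50469 and 113 and 138 with WM1119, and like MPO it rose with both agents against DMSO (adjusted p = 0.000362 and 0.0126).

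Other granule and progenitor genes were among those raised. MS4A3, a tetraspan protein that marks progenitors of granulocytes and monocytes, read 1.77 and 3.502 CPM in DMSO, 27.5 and 36.3 with VTP50469 and 6.52 and 5.64 with WM1119, with a log2 difference between agents of 2.39 ± 0.20 (SE, adjusted p = 0.0089). Among these 3 groups its DMSO samples were the lowest and its VTP50469 samples the highest, with no overlap. SERPINB10 and SERPINB2 are serine protease inhibitors whose genes lie 4070 bases apart on chromosome 18, and both were near 0 in WM1119 and DMSO. SERPINB10 had 7.12 and 10.7 CPM with VTP50469 against 0.169 and 0.6803 with WM1119, 0.0553 and 0.195 in DMSO and 12.2 and 8.48 in the combination (adjusted p between agents 0.0163). SERPINB2 had 2.98 and 4.29 against 0.127 and 0.194 and 0 and 0.0486 CPM (adjusted p = 0.0154). BPI, a granule protein that kills Gram-negative bacteria, had 75 counts over the 2 VTP50469 samples and 1 over the 2 WM1119 samples, a ratio of 78.2 with a 95% counting interval of 13.6 to 3129 that covers counting error only.

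Further genes called higher with VTP50469 were chosen after their values were seen or through a list. TLR4, the receptor for bacterial lipopolysaccharide, stood at 15.97 and 15.8 CPM in DMSO, 59.3 and 61.3 with VTP50469 and 15.9 and 20.02 with WM1119, a 3.37-fold difference between the agents (adjusted p = 0.00621). CYBB, the catalytic subunit of the phagocyte NADPH oxidase, read 39.5 and 41.4, 124 and 145 and 52.9 and 54.4 CPM in the same order, with a log2 difference of 1.33 ± 0.12 (SE, adjusted p = 0.0121). In both genes every VTP50469 sample was above every other sample of the 3 groups. MNDA, an interferon-inducible nuclear protein of myeloid cells, was 4.28-fold higher with VTP50469 (adjusted p = 0.0135). The neutrophil chemokine CXCL8 stood at 7.27 and 12.8 CPM with VTP50469 and 1.396 and 1.55 with WM1119 (adjusted p = 0.0259), near 0.719 and 1.703 in DMSO. The SRC-family kinase FGR, the lipopolysaccharide-degrading enzyme AOAH and the succinate receptor SUCNR1 were also higher, with log2 differences of 1.74, 1.66 and 2.95. ANXA1, a regulator of neutrophil recruitment, stood at 22.8 and 18.97 CPM in DMSO, 61.8 and 68.99 with VTP50469 and 28.4 and 26.5 with WM1119 (adjusted p = 0.0154). NFE2, a transcription factor best known in megakaryocytes and erythroid cells, was 3.62-fold higher with VTP50469 (adjusted p = 0.0209). TNFSF13B, the B cell survival factor BAFF that monocytes make, rose against DMSO with both agents, and its levels were 12.8 and 14.2 CPM in DMSO, 37.7 and 40.1 with VTP50469 and 20.1 and 22.7 with WM1119. Whether more cells of a kind or more RNA per cell lies behind such values cannot be told apart in bulk samples.

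The highest fold belonged to GTF2IP4, a transcribed pseudogene of a family with near-identical copies, and it is uncertain. It had 2807 counts over the 2 VTP50469 samples, at 77.1 and 56.6 CPM, and no count in WM1119 or DMSO, which makes it at least 975-fold higher than the floor of 3 counts over the WM1119 samples. The combination samples had 13.2 and 0 CPM. Reads of its copies cannot be told apart in these counts. ANKRD22 was 11.5-fold higher with VTP50469, at 5.71 and 7.87 CPM against 0.762 and 0.389 with WM1119. FAM46C, a poly(A) polymerase also called TENT5C, FAM134B, a receptor for endoplasmic reticulum autophagy also called RETREG1, and the nuclear receptor NR2F2 differed by 4.26, 3.84 and 3.26 on the log2 scale, all with under 5 CPM in every sample of the 4.

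Genes lower with VTP50469 included known Menin dependents. MEIS1, the partner of HOXA proteins on DNA, stood at 33.5 and 29.7 CPM in DMSO, 14.5 and 15.04 with VTP50469 and 31.8 and 31.4 with WM1119. The WM1119 samples lay within the DMSO range and both VTP50469 samples were below it, with a log2 difference between the agents of -1.098 ± 0.13 (SE, adjusted p = 0.0198). MEF2C, a MADS-box transcription factor, read 591 and 584, 275 and 217 and 457 and 589.5 CPM in the same order, and the agents differed by -1.09 ± 0.15 (SE, adjusted p = 0.0382). Here the WM1119 samples were apart, with 1 at the DMSO level and 1 below it. Against DMSO, MEIS1 and MEF2C fell with VTP50469, with log2 differences of -1.08 and -1.25 (adjusted p = 0.0031 and 0.00347). WM1119 was at 0.01 and -0.17, not called. Between the agents, DESeq2 on the 4 samples called both MEIS1 and MEF2C (adjusted p = 7.7e-06 and 9.76e-09). DESeq2 on all 8 samples called neither (adjusted p = 0.756 and 0.383), and edgeR with library size only did not call MEF2C (adjusted p = 0.0664).

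Other genes lower with VTP50469 had various roles. VCAN, the proteoglycan versican, stood at 41.3 and 32.8 CPM in DMSO, 4.45 and 3.05 with VTP50469 and 15.2 and 25.9 with WM1119, and was 5.48-fold higher with WM1119 than with VTP50469 (adjusted p = 0.0218). The WM1119 samples lay between DMSO and VTP50469 and differed from each other. DLL1, a ligand of Notch receptors, read 44.6 and 49.9, 13.9 and 11.3 and 34.3 and 33.7 CPM, again with WM1119 in between (log2 difference -1.44 ± 0.15, SE, adjusted p = 0.015). CSPG4, the NG2 proteoglycan known from blasts with a KMT2A fusion, was 2.09-fold higher with WM1119 (adjusted p = 0.0357), at 55.1 and 43.2 CPM with VTP50469 against 131 and 122 in DMSO. CSRP3, a LIM protein best known in muscle, fell from 4.48 and 5.64 CPM in DMSO to 0.0505 and 0.133 with VTP50469, while WM1119 had 2.03 and 1.895 (adjusted p between agents 0.03). SULF2, a heparan sulfate sulfatase, and TTC28, a protein with tetratricopeptide repeats, differed by -3.59 and -2.16. The ephrin EFNA5, the focal adhesion kinase PTK2 and MPEG1, a pore-forming protein of macrophages, were lower, with log2 differences of -1.13, -1.53 and -1.31, with DMSO close to WM1119 in each. DACH1, a corepressor, was called at -0.95, a call lost without VTP50469 replicate 2.

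For 5 genes higher with VTP50469, its level was near DMSO and WM1119 was lower. GJA1, the gap junction protein connexin 43, stood at 137 and 139 CPM in DMSO, 123 and 114 with VTP50469 and 40.8 and 45.4 with WM1119. Both WM1119 samples were far below those of DMSO and VTP50469, and the log2 difference between the agents was 1.46 ± 0.11 (SE, adjusted p = 0.00621). Against DMSO, GJA1 fell with WM1119, with a log2 difference of -1.68 (adjusted p = 0.000795), while VTP50469 was at -0.21, not called. RET, a receptor tyrosine kinase, read 61.9 and 58.7 CPM in DMSO, 74.95 and 73.4 with VTP50469 and 30.97 and 33.2 with WM1119 (log2 difference 1.21 ± 0.11, SE, adjusted p = 0.0107). Its VTP50469 samples lay above DMSO and its WM1119 samples below, and only WM1119 was called against DMSO (adjusted p = 0.00954). LRP5, a coreceptor for Wnt, and WASF1, an actin regulator, were 2.26-fold and 1.85-fold higher with VTP50469, with WM1119 called lower than DMSO in both. The DMSO samples that placed these 5 genes also enter these calls. SNRK-AS1 had 82 counts with VTP50469 and 0 with WM1119, at least 28.5-fold higher against the floor of 3 counts over the WM1119 samples. It is an antisense transcript, and since the counting is not stated to use strand, its reads cannot be told apart from those of SNRK.

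KDM5B, a demethylase of histone H3 lysine 4, and IL7R, the receptor chain for interleukin 7, had lower levels with WM1119 than with VTP50469 or in DMSO. KDM5B stood at 10.2 and 11.8 CPM in DMSO, 8.18 and 8.54 with VTP50469 and 3.3 and 3.596 with WM1119 (adjusted p between agents 0.0443), so VTP50469 also lay below DMSO. IL7R read 8.23 and 5.64, 10.1 and 9.91 and 2.29 and 2.96 CPM, with VTP50469 above both DMSO samples, and the log2 difference between the agents was 1.93 ± 0.21 (SE, adjusted p = 0.0163). WM1119 was called lower than DMSO for both genes (adjusted p = 0.00954 and 0.0391), and VTP50469 for neither.

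Genes raised by WM1119, with VTP50469 near DMSO, were 8. FGD2, an exchange factor for the GTPase CDC42 in myeloid cells, stood at 4.64 and 5.84 CPM in DMSO, 4.596 and 4.33 with VTP50469 and 13.9 and 14.5 with WM1119. The WM1119 samples were above those of DMSO and VTP50469, and FGD2 was 3.18-fold higher with WM1119 than with VTP50469 (log2 difference -1.67 ± 0.17, SE, adjusted p = 0.0149). SEMA4A, a semaphorin that acts on immune cells, read 10.7 and 11.9, 10.8 and 12.8 and 24.7 and 28.7 CPM in the same order (adjusted p = 0.0331). MVP, the major vault protein, read 36.4 and 38.7, 36.8 and 36.9 and 72.7 and 65.7 CPM, and its VTP50469 and DMSO samples overlapped (adjusted p = 0.0357). PTGS1, the cyclooxygenase COX-1, and PTGIR, the receptor for prostacyclin, were 2.61-fold and 5.35-fold higher with WM1119. PTGIR was low, at 0.505 and 0.663 CPM with VTP50469 and 3.64 and 2.67 with WM1119. GGT1, which breaks down glutathione outside the cell, DHRS9, a retinol dehydrogenase, and ANXA4, a calcium-dependent phospholipid-binding protein, differed by -0.999, -0.81 and -0.77. The call of DHRS9 was lost without either VTP50469 replicate, and that of ANXA4 without VTP50469 replicate 1. Against DMSO, all 8 were called higher with WM1119 in the fit of 6 samples, PTGIR closest to the threshold (adjusted p = 0.0498), and none was called with VTP50469. The same samples placed these genes near DMSO with VTP50469, so these calls follow in part from the grouping and are no separate support.

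**Figure D2:**
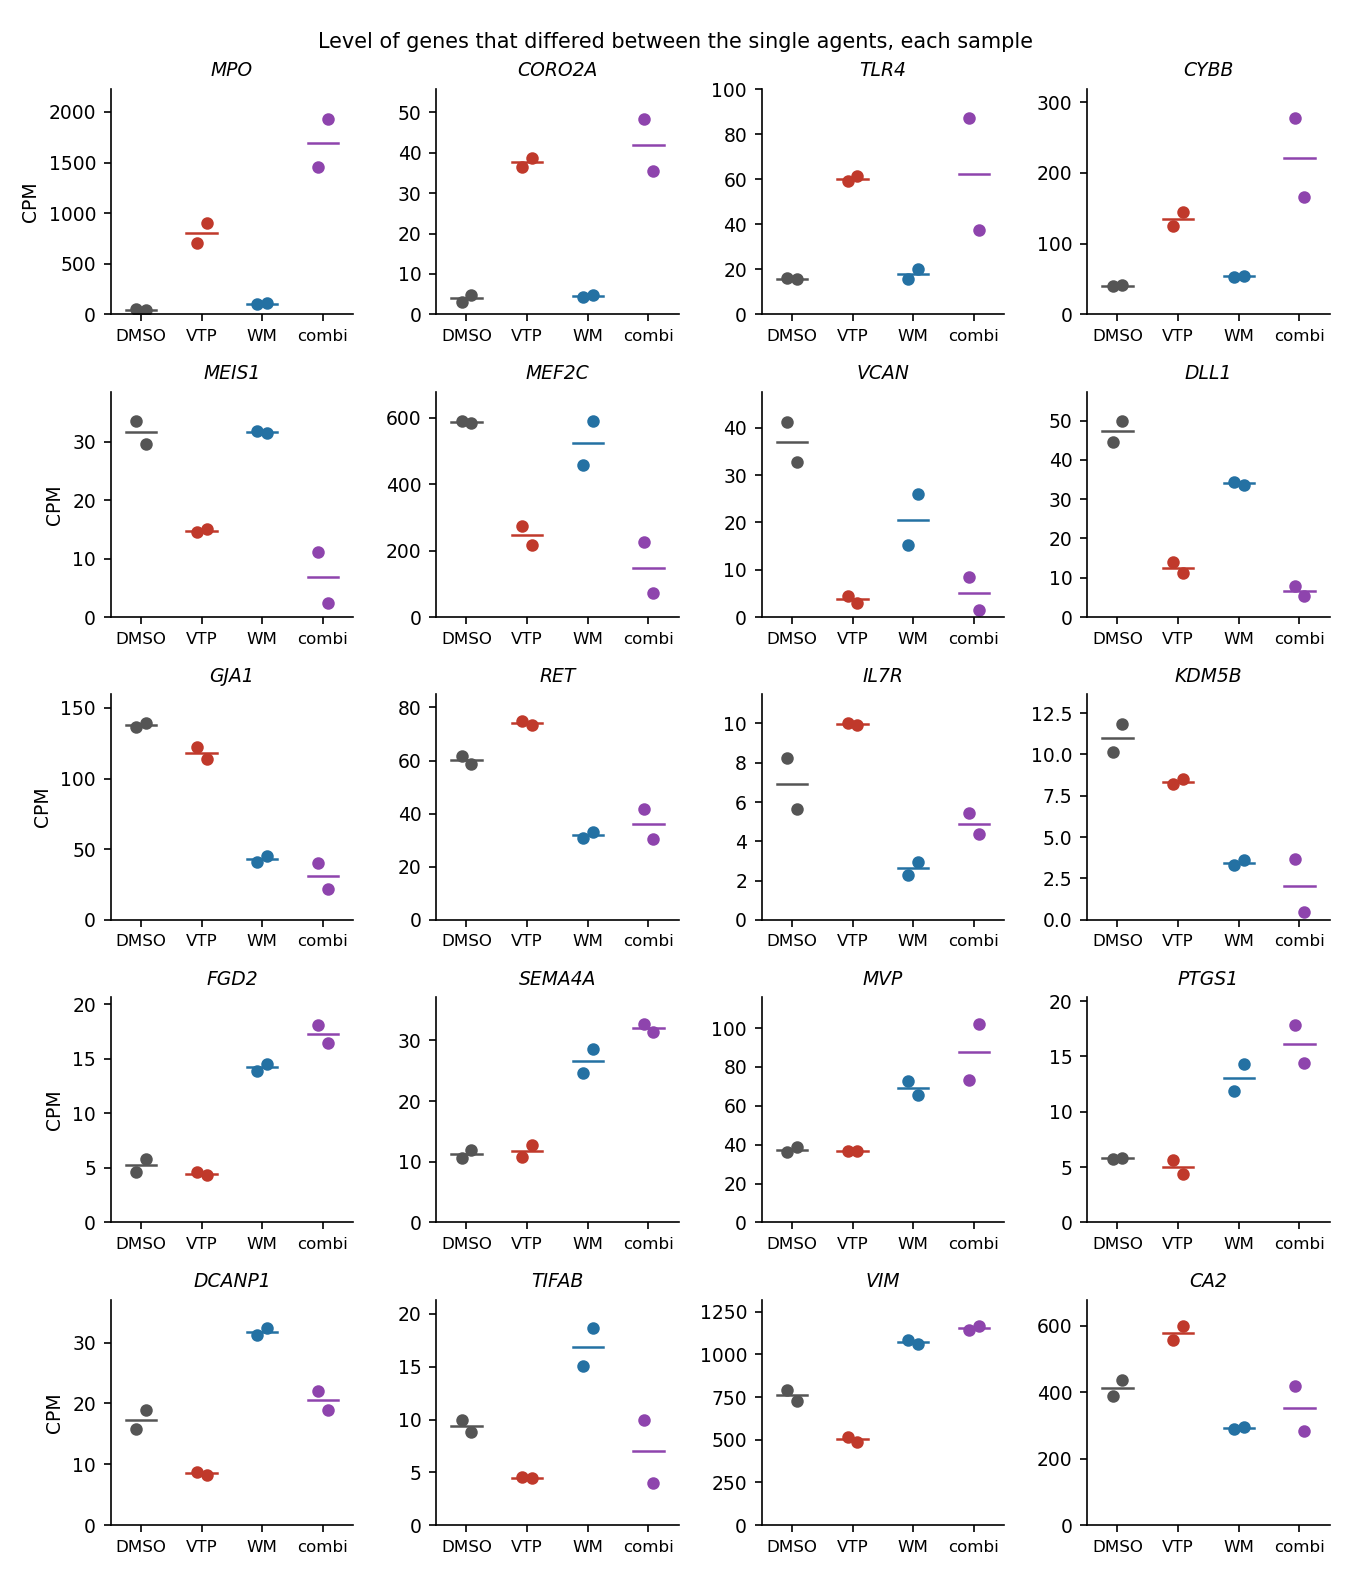
CPM of 20 genes in each of the 8 samples, 2 per group, with a bar at the group mean and each vertical axis starting at 0. From top to bottom the rows show genes with VTP50469 high, genes with VTP50469 low, genes with WM1119 low, genes with WM1119 high, and genes in which the agents lay on opposite sides of DMSO.

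For 18 of the higher and 25 of the lower genes, all samples of the 2 agents lay on opposite sides of both DMSO samples. That share over all tested genes was not measured. In 3 of these genes both agents were also called against DMSO, in opposite directions. VIM, the intermediate filament vimentin, stood at 793 and 728 CPM in DMSO, 519 and 486 with VTP50469 and 1083 and 1060 with WM1119. The 3 groups did not overlap, and the agents differed by -1.09 ± 0.11 (SE, adjusted p = 0.0143). DCANP1 read 15.8 and 18.97 CPM in DMSO, 8.79 and 8.27 with VTP50469 and 31.2 and 32.5 with WM1119 (log2 difference -1.899 ± 0.13, SE, adjusted p = 0.0049), and TIFAB, an inhibitor of TRAF6 signalling, read 10 and 8.805, 4.55 and 4.42 and 15.1 and 18.7 CPM (log2 difference -1.91 ± 0.17, SE, adjusted p = 0.0118). DCANP1 (chr5:135444214-135447348) and TIFAB (chr5:135444226-135452351) overlap on the same stretch of chromosome 5, so their counts may not be independent. CA2, carbonic anhydrase 2, was the reverse, at 390.3 and 438 CPM in DMSO, 558 and 601 with VTP50469 and 291 and 296 with WM1119, and differed between agents by 0.98 ± 0.11 (SE, adjusted p = 0.0163). Against DMSO, VTP50469 was called for CA2 (adjusted p = 0.0265) and WM1119 was just outside the threshold (adjusted p = 0.0503). ECM1, an extracellular matrix protein, NQO1, a quinone reductase, and PMP22, a tetraspan membrane protein, were lower with VTP50469 than with WM1119, with log2 differences of -1.82, -0.99 and -2.06, and fell against DMSO with VTP50469 alone.

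**Figure D3:**
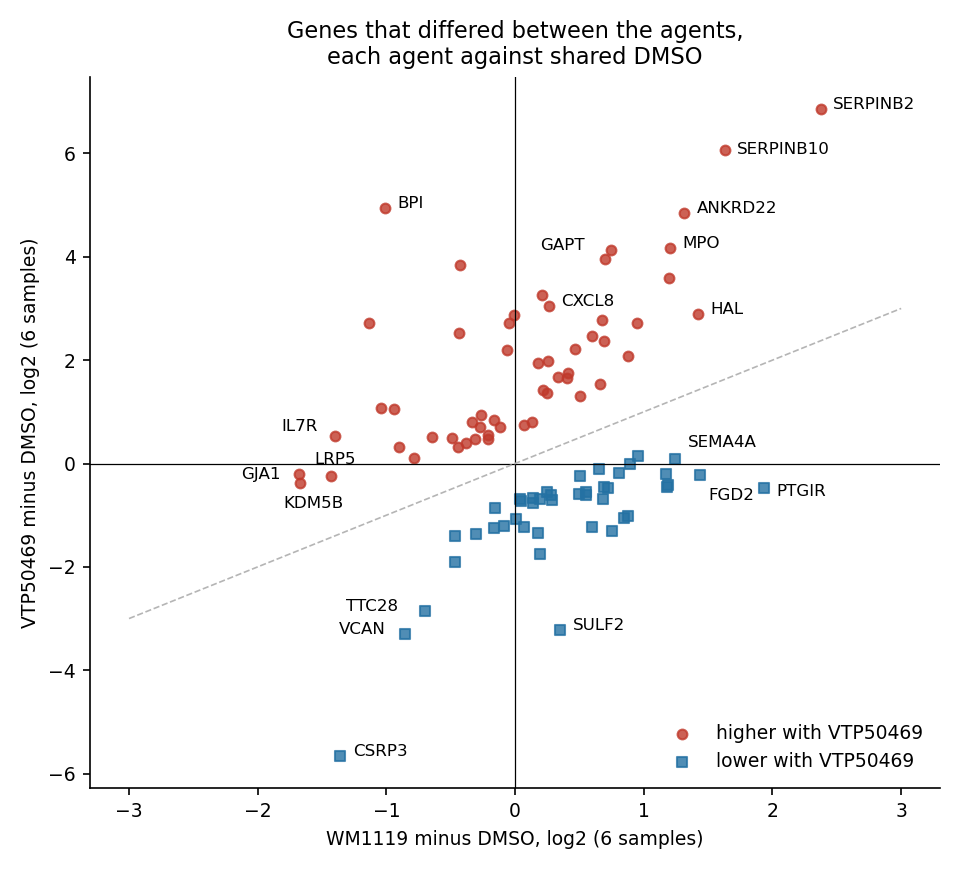
Log2 difference from DMSO with WM1119 (horizontal) and with VTP50469 (vertical) for 97 of the 99 genes, from the fit of 6 samples in which both differences share the DMSO samples. GTF2IP4 and SNRK-AS1, each with a group at 0 counts, are left out, and the dashed line marks an equal change with both agents.

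The promoters of the genes that differed had lower median counts of CpG pairs than those of tested genes as a whole. RefSeq start sites (GRCh38.p14) were matched for 40 of the 56 higher and 35 of the 43 lower genes, and for 9667 of the 12030 tested genes. In the 250 bases before the start the median was 5.5 CpG in the higher genes and 7 in the lower genes, against 21 over all tested genes. The median GC content of these windows was 57% in the higher and 60% in the lower genes, against 64.8% over all. The C/EBP-type pattern TTNNGNAA occurred on either strand in 40% of the higher and 34.3% of the lower promoters, against 24% of all. The PU.1-type pattern GAGGAA occurred in 42.5% and 28.6%, against 22.7%. In the 18 matched promoters of higher genes with DMSO near WM1119, the shares were 38.9% for TTNNGNAA and 27.8% for GAGGAA. No share is adjusted for GC content. The patterns were searched separately and may overlap. These shares are descriptions without a test, and a match is not a bound site. Shown are 250 bases before the start, 5′ to 3′ on the strand of the gene with CpG pairs in capitals, for a CpG-poor and a CpG-rich gene raised by VTP50469, a gene lowered by VTP50469 and a gene lowered by WM1119.
MS4A3 (chr11:60056415-60056664, plus strand): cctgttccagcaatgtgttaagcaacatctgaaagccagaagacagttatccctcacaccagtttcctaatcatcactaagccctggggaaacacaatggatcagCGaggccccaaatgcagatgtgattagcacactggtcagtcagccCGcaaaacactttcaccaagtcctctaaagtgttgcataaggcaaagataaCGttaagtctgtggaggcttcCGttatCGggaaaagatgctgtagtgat
CORO2A (chr9:98192638-98192887, minus strand): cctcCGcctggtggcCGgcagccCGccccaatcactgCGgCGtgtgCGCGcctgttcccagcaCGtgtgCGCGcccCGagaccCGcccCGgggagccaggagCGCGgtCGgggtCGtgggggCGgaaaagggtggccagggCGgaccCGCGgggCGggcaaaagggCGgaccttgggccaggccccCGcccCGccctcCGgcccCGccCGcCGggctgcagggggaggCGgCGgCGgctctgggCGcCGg
MEIS1 (chr2:66434875-66435124, plus strand): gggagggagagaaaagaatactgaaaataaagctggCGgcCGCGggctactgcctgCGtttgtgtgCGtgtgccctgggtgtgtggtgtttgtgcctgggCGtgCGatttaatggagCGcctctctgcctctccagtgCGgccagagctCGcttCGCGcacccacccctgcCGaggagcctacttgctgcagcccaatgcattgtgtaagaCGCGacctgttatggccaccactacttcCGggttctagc
GJA1 (chr6:121435396-121435645, plus strand): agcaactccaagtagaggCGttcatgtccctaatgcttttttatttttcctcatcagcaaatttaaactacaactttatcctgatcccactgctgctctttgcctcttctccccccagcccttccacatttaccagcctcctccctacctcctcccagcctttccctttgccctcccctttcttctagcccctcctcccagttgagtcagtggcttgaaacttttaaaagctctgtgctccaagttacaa
The MS4A3 window holds 5 CpG and 3 matches to TTNNGNAA, and the CORO2A window holds 34 CpG and no match to either pattern. MEIS1 has 16 CpG and 1 match to TTNNGNAA, and GJA1 has 1 CpG and 1 match to GAGGAA.

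Neutrophil granule lists had positive medians. Of 14 tested genes on the primary granule list, 4 were called higher, MPO, MS4A3, SERPINB10 and BPI, and none lower. MPO and BPI are granule proteins, while MS4A3 marks progenitors and SERPINB10 is a protease inhibitor. On this list 13 genes had a positive log2 difference, with a median of 0.68 against -0.002 over all tested genes. At an unadjusted p under 0.05, 11 members were higher, where 5.35% of all tested genes were higher and 5.84% lower. BPI, with 1 and 0 counts with WM1119, and SERPINB10, with 4 and 14, had enough counts for the test only through VTP50469. Members so low with WM1119 could be tested only if higher with VTP50469, and both enter these counts and the median. The serine proteases had values in the same direction and missed the threshold. ELANE, neutrophil elastase, stood at 558 and 601 CPM with VTP50469 and 382 and 341 with WM1119 (adjusted p = 0.0741), and CTSG, cathepsin G, at 93.7 and 125 and 59.1 and 40.9 (adjusted p = 0.0961). PRTN3, proteinase 3, had a log2 difference of 0.58 (adjusted p = 0.118). Of 28 genes of late granules and mature neutrophils, 11 had no count in the 4 samples and 5 were tested. Of these 5, CHI3L1 and ANXA1 were called higher and none lower, with a median of 1.252. CHI3L1, a chitinase-like glycoprotein, stood at 13.2 and 16.6 CPM in DMSO, 82.03 and 111 with VTP50469 and 27.9 and 29.4 with WM1119 (adjusted p = 0.0143). CSF3R, the receptor for G-CSF, was at 53.9 and 58.6 CPM with VTP50469 and 34.3 and 34.1 with WM1119 and missed the threshold (adjusted p = 0.054).

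Menin-KMT2A fusion targets showed the opposite sign. Of 23 tested, MEIS1 and MEF2C were called lower with VTP50469 and none higher, and 18 had a negative difference, with a median of -0.47. At an unadjusted p under 0.05, 13 were lower and 1 was higher, where 5.84% of all tested genes were lower and 5.35% higher. RUNX2, a transcription factor, had a log2 difference of -0.73 and PBX3, a partner of MEIS1, of -0.57, with an adjusted p of 0.0708 and 0.071. HOXA9, the best known HOX gene of these leukemias, stood at 67.6 and 68.01 CPM in DMSO, 57.3 and 57.98 with VTP50469 and 75.5 and 67.1 with WM1119. The agents differed by -0.31 (95% interval -0.60 to -0.02, adjusted p = 0.406), so a difference of more than 2-fold lay outside the interval. FLT3, the receptor tyrosine kinase, was at 179.7 and 152 CPM with VTP50469 and 217 and 242 with WM1119 (adjusted p = 0.155). Medians of this list and of the granule list kept their sign with each sample left out, at -0.48 to -0.38 and 0.57 to 0.80.

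Other lists were divided, near 0 or below it. The LSC17 stemness genes, 8 of 17 tested, had a median of -0.60 with 6 negative and none called. At an unadjusted p under 0.05, 3 of them were lower and 1 higher, against 5.84% and 5.35% of all tested genes. Of 31 tested genes of monocyte and macrophage maturation, TLR4, CYBB and MNDA were called higher and VCAN lower, and the median was 0.05. LYZ, lysozyme, rose against DMSO with both agents (adjusted p = 0.000558 and 0.00954) and stood at 553 and 613 CPM in DMSO, 1836 and 2241 with VTP50469 and 1549 and 1556 with WM1119. Between the agents LYZ differed by 0.39 (95% interval 0.07 to 0.72, adjusted p = 0.328). Of 30 tested myeloid transcription factors NFE2 was the 1 called, and the median was -0.04. CEBPD, C/EBP delta, stood at 22.9 and 23.2 CPM in DMSO, 45 and 50.8 with VTP50469 and 28.3 and 29.01 with WM1119, with a log2 difference of 0.74 ± 0.12 (SE) that just missed the threshold (adjusted p = 0.058). CEBPE, needed for late neutrophil maturation, was at 3.08 and 3.63 and 1.1 and 0.6803 CPM (adjusted p = 0.0829). IRF8, which directs monocyte and dendritic fates, was at 699.9 and 713 CPM in DMSO, 521 and 493 with VTP50469 and 720.1 and 806 with WM1119 (adjusted p = 0.0676). No gene of MHC class I presentation (median 0.14, 17 tested) or class II presentation (median -0.21, 13 tested) was called. CD74, the invariant chain of class II, rose against DMSO with WM1119 (adjusted p = 0.0144) and stood at 438 and 413 CPM with VTP50469 and 649 and 552 with WM1119.

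No member of the lists of S phase (42 tested, median 0.04), G2 and M phase (40 tested, 0.03), MYC and nucleolar genes (38 tested, -0.02), p53 targets (24 tested, -0.03) or Polycomb subunits (31 tested, 0.04) was called. Cytoplasmic ribosomal proteins (79 tested) had a median of -0.09 and oxidative phosphorylation genes (76 tested) of -0.14, also with no call. These short transcripts changed sign with the sample left out, from 0.18 without WM1119 replicate 1 to -0.31 without WM1119 replicate 2 for ribosomal proteins. Among single members of other lists, ABCA1, a cholesterol exporter, was called higher at 1.99 and the immediate early gene FOS lower at -0.80, the last lost without VTP50469 replicate 2. The Myeloid Program that the study derived from single-cell perturbation had 322 of 338 genes tested, with TNFSF13B called higher and none lower. In it 198 genes had a positive difference and 124 a negative one. At an unadjusted p under 0.05, 39 were higher and 18 lower, where 5.35% of all tested genes were higher and 5.84% lower. The median was 0.06, which was -0.03 without WM1119 replicate 1 and 0.18 without WM1119 replicate 2.

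**Figure D4:**
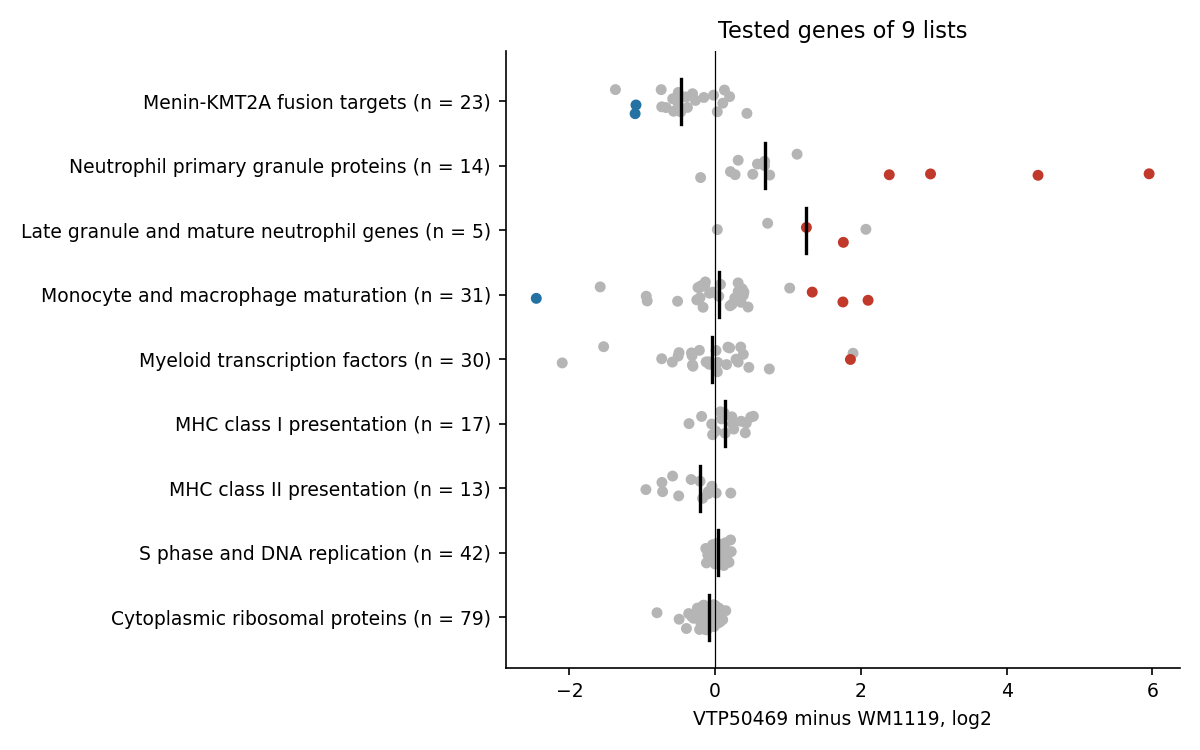
Log2 difference between VTP50469 and WM1119 for every tested gene of 9 lists, with the number tested beside each name and a black bar at the median. Genes called higher with VTP50469 are red and genes called lower are blue, and the granule and fusion target lists have their medians at 0.68 and -0.47.

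The genes of the agents' own targets were not called. MEN1 stood at 92.2 and 82.8 CPM with VTP50469 and 82.3 and 83.4 with WM1119, a log2 difference of 0.08 with a 95% interval of -0.18 to 0.33. KMT2A was at 42.1 and 34.5 CPM with VTP50469 and 26.4 and 53.4 with WM1119 (95% interval -0.72 to 0.62), and KAT6A at 164 and 129.9 and 104 and 193 (95% interval -0.60 to 0.59). KMT2A and KAT6A have long transcripts, and their WM1119 samples lay on both sides of the VTP50469 samples. None of 22 Menin and KMT2A complex genes and none of 16 genes of MYST acetyltransferases and their partners was called. SPI1, the myeloid factor PU.1, had an interval of -0.37 to 0.17, CEBPA of -0.12 to 0.43 and CD33 of -0.37 to 0.15, all within 2-fold. ITGAM, the integrin CD11b, was at 1.71 and 1.605 CPM in DMSO, 3.94 and 2.83 with VTP50469 and 4.32 and 3.35 with WM1119 (95% interval -0.86 to 0.48), and ALCAM, an adhesion molecule, had an interval of -0.21 to 0.47. CD14, the monocyte coreceptor of TLR4, had 3 to 9 counts per sample and was not tested.

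The combination samples enter neither side of the comparison between the agents, and set against DMSO they give a further description of the same genes. In a fit of all 8 samples, 5.85% of genes were called higher with the combination than with DMSO and 3.44% lower. Called or not, 50.6% of the genes in that fit were above DMSO in the combination. Of the 56 genes higher with VTP50469 than with WM1119, 46 were above DMSO in the combination and 33 were called, 10 were below and 4 were called, and the median log2 difference was 2.10, against 0.01 over all tested genes. The split followed the place of DMSO. The 38 genes with DMSO near or beyond WM1119 were all above DMSO in the combination, with medians of 2.83 over 26 and 3.40 over 12. The 5 with DMSO near VTP50469 were all below, with a median of -2.05. MPO reached 1454 and 1930 CPM in the combination and MS4A3 90.2 and 119.8, above both agents, while GJA1 stood at 40.05 and 21.9. These placements use the same DMSO samples as the difference itself, so part of the split is shared.

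Beside the 50.6% of all genes in the fit of 8 samples that were above DMSO, the split of the lower genes was less marked. Of the 43 genes lower with VTP50469, 26 were below DMSO in the combination and 14 were called, 17 were above and 8 were called, with a median of -0.31. Without combination replicate 1, 22 were called below and the median was -0.39, and without combination replicate 2 these were 17 and -0.19. All 19 with DMSO near or beyond WM1119 were below and all 8 raised by WM1119 were above. Here too the places and the differences share the DMSO samples. MEIS1 stood at 11.1 and 2.49 CPM and DLL1 at 7.94 and 5.404, while FGD2 stood at 18.1 and 16.5 and SEMA4A at 32.7 and 31.4. Of the genes with the agents on opposite sides of DMSO, VIM stood at 1142 and 1166 CPM, near WM1119, DCANP1 at 22.1 and 18.97, between WM1119 and VTP50469, and TIFAB at 9.98 and 3.999. VIM was called higher than DMSO (adjusted p = 0.0269), and DCANP1 and TIFAB were not (adjusted p = 0.161 and 0.483). The combination samples differed from each other, as in TLR4 at 87.5 and 37.6 CPM, and without combination replicate 1 the median over the higher genes was 1.32 and 8 of them were called below DMSO.

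**Figure D5:**
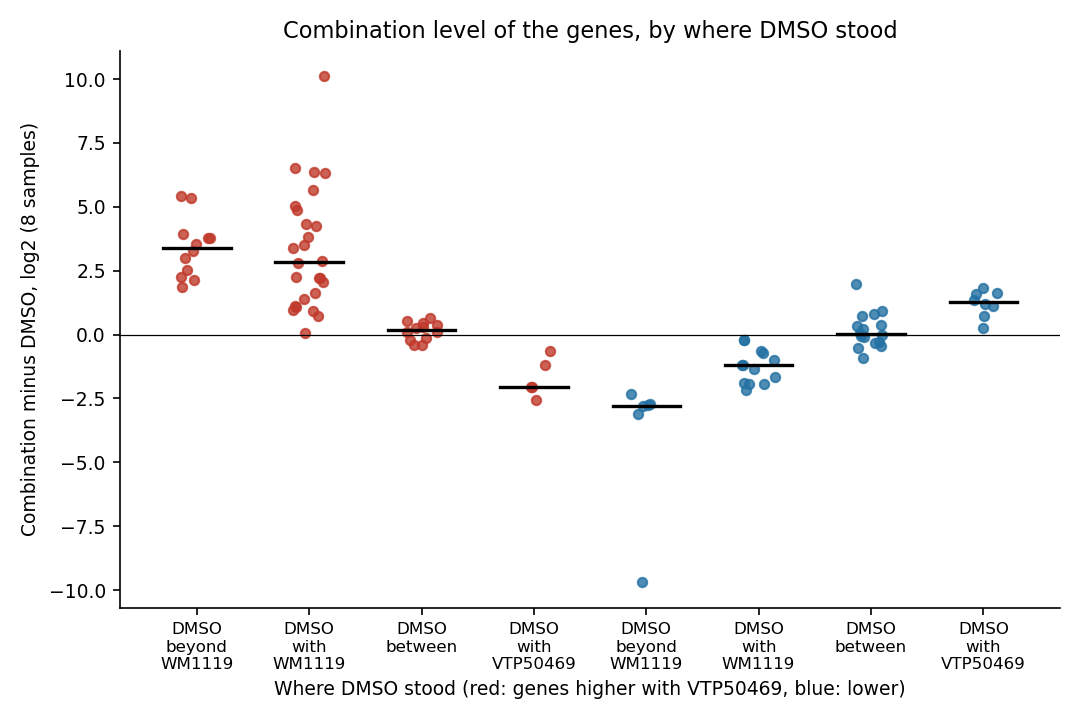
Log2 difference between the combination and DMSO, from the fit of 8 samples, for the genes that differed between the agents, grouped by where DMSO stood (KDM5B, the 1 gene with DMSO beyond VTP50469, is not drawn). Points are genes and bars are medians. The medians change sign between genes with DMSO near WM1119, at 2.83 and -1.19, and genes with DMSO near VTP50469, at -2.05 and 1.29. Places and differences share the DMSO samples.

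Transcript length, which separated the WM1119 samples, was similar in both directions. The median was 3081 bases in the 50 higher genes with a length, 3037 in the 43 lower genes and 3252 in all tested genes with one. Median GC content was 44.3% in the higher genes, 52.8% in the lower genes and 48.6% over all. With an offset for length and GC content in each sample, 501 genes were called, 252 higher and 249 lower, and all 99 genes were among them.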

How the data were processed

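The authors mapped paired-end reads of bulk RNA to hg38 with STAR 2.5.1b, per the labels, and deposited unnormalized expected counts for each gene symbol. Which tool counted the reads, whether it used strand, and which annotation it took were not stated. Medium, RNA kit and library kit differ between the paper and the labels and were not used. Counts were rounded. The 2 VTP50469 and 2 WM1119 samples were fitted alone in R 4.3.3 and edgeR 4.0.16, by the quasi-likelihood test with TMM factors after filterByExpr, with 2 residual and 4.93 prior degrees of freedom and a common dispersion of 0.0144, and a call needed a Benjamini-Hochberg p under 0.05. Fits of 6 samples (with DMSO) and of all 8 gave the differences from DMSO. The labels spell the KAT6A inhibitor WM119 in places. The sample totals give a floor of 3 counts over a group, 0.0707 CPM with VTP50469 and 0.0679 CPM with WM1119, and floors and counting intervals cover counting error only.

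The members and the gene lists were chosen with earlier results of these data known. Genes named by rule are the 10 highest and 10 lowest log2 differences among called genes with non-overlapping samples and a mean of at least 1 CPM in their higher group, the 5 lowest p in each direction, the 4 lowest p of each list, and 12 genes of the paper or the targets. Other called genes were named after their values were seen, and some genes of the rule are given only in counts. Of the 35 lists and 17 programs, those not described in the text had at most 3 called genes in a direction. Lengths and GC content come from GENCODE release 44 (92.4% of tested genes), and promoters and positions from RefSeq GRCh38.p14. Replicate numbers were checked for pairing: the deviations of VTP50469 and WM1119 replicate 1 from their group means had a correlation of -0.38 across genes, and no pairing was assumed. Alternatives were DESeq2 1.42.0, other factors, filters and fits, a replicate block, and each sample left out.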

Additional observations from a re-analysis of the deposited data

Results flagged for a closer look

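In 3 genes the effects of the agents against DMSO had opposite signs, each called in the fit of 6 samples, and the direct test between the agents gave the difference. The log2 difference between VTP50469 and WM1119 was -1.90 for DCANP1, -1.91 for TIFAB and -1.09 for VIM, all lower with VTP50469 in 2 of 2 samples. DCANP1 and TIFAB overlap on chromosome 5, so they count as 1 locus. Groups of 2 samples are too small for a search for single samples that stand apart.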

How the results depend on the processing

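The 99 genes kept their direction under all 18 alternatives in which they were tested. Against 56 genes called higher with VTP50469 and 43 lower, the counts were 136 and 130 with 6 samples in the fit, 3 and 1 with all 8, 126 and 125 with DESeq2 on 4 samples, 67 and 76 with DESeq2 on all 8, 35 and 19 with library size only, 189 and 213 without a count filter, 16 and 4 against a fold threshold of 1.5, 252 and 249 with an offset for length and GC content, and 388 and 372 with that offset in 6 samples, which was chosen after seeing the data. Leaving out 1 sample gave 76 to 781 higher and 83 to 729 lower, with the lone sample of its group assumed to vary like the other group. DESeq2 on 4 samples, RLE factors, the robust fit, both offsets, the fit without a filter and the fit of 6 samples included all 99, and the filter of 10 counts in every sample tested 88 and called all of them. The replicate block called 54 and 38 with 77 of the 99 shared, and the numbers mark no known pairing of the samples. The crossed replicate block, added because same-numbered samples deviated in opposite ways, called 553 and 642. The fits differ in the spread they estimate (common dispersion 0.0144 with 4 samples, 0.011 with 6, 0.0457 with 8, and 0.00607 without either WM1119 replicate), and the cause was not tested.

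The share of higher genes with DMSO near WM1119, 46.4%, was 13.4% to 48.8% with 1 sample left out, and the share with DMSO near VTP50469, 8.93%, was 6.58% to 35.7%, with the order of these shares turned without WM1119 replicate 2. For lower genes these shares were 30.2%, with 13.2% to 32.5%, and 18.6%, with 13.3% to 36.6%. Each share is of the genes called in its own fit, so the called genes changed along with the positions. The median of the combination against DMSO over the higher genes was 1.32 to 2.01 with a combination sample left out. Among uncalled genes, KMT2A and KAT6A changed sign, at 0.0152 and 0.0395 with the replicate block, 0.00962 and 0.0377 with the crossed block, and from -0.44 to 0.49 and from -0.36 to 0.45 with 1 sample left out. ALCAM, ITGAM and SPI1 also crossed 0, at -0.0369 to 0.33, -0.43 to 0.0447 and -0.19 to 0.00457 with 1 sample left out. List medians moved by less than the spread between samples in 52 of 52 lists and programs with RLE factors, and by more in 22 and 25 without WM1119 replicate 1 and 2.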
